A study of Williopsis jadinii with 2 samples.

Results

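In the yeast Cyberlindnera jadinii, 139 genes had transcript levels at least 4-fold lower in a xylose culture than in a glucose culture, out of 5880 genes measured. These genes were chosen by the measured counts of the same libraries that describe them. A gene was kept when its coding length exceeded 300 bases, when both libraries together held at least 50 counts for it, and when its glucose level plus 1 was at least 4 times its xylose level plus 1. Levels are counts per 1000000 counts of the library (CPM), with no other scaling. The length and count limits left 5489 genes that could be compared, and the 139 genes were 2.53% of them. That share follows from the rule itself and is given as a description.

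The series holds 1 library from cells in xylose and 1 library from cells in glucose, both from the wild-type strain NBRC0988. Both cultures came from cells grown in rich medium with glucose for 15 h, starting at an OD600 of 0.1 and ending between 2 and 3. The cells were washed and then held for 5 h at 30 °C and 250 rpm in rich medium with 2% (w/v) xylose or 2% (w/v) glucose, so the xylose cells had met glucose until the transfer. The xylose library had 13061052 counts and the glucose library 14728899. With 1 library per sugar there is no measure of the spread between cultures, no test could be made, and every statement compares these 2 libraries. The intervals below reflect counting error alone, and without molecular identifiers the reads need not be separate molecules.

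C. jadinii, long known as Candida utilis or torula yeast, is grown as food and fodder yeast on sugars from wood and other plant matter, xylose among them. Yeasts that use xylose generally reduce it to xylitol, oxidise xylitol to xylulose, and pass xylulose-5-phosphate into the pentose phosphate pathway. Glucose is the preferred sugar of most yeasts, and their glucose-grown cells make transporters and enzymes suited to its rapid uptake and breakdown. The files identify genes by running IDs only and pair none with a name or product, and 0 of the 5880 IDs were found among the 6184 genes that RefSeq lists for another strain, NRRL Y-1542 (assembly Cybja1). No role can therefore be given to any gene below, and the genes are described by level, ratio, coding length and place in the order of IDs.

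As a set, the 139 genes took up a much smaller part of the transcript pool in xylose. Each gene was chosen for a lower level in xylose, so the direction of the differences in this paragraph follows from the rule. The values are given as a description. Their part was 0.718% of all counts in xylose and 7.52% in glucose. The 95% Clopper-Pearson intervals, 0.713% to 0.722% in xylose and 7.50% to 7.53% in glucose, are narrow at this depth. When the libraries were scaled by the trimmed mean of M values (TMM) before the genes were chosen, 105 genes remained and held 0.476% of the xylose counts and 6.45% of the glucose counts. The median gene of the set stood at 9.95 CPM in xylose (lower and upper quartile 1.95 and 31.7 CPM) and at 85.7 CPM in glucose (20.9 and 249.9 CPM). Over all genes compared, the medians were 56.0 CPM in xylose and 66.2 CPM in glucose. Above the median of all genes compared were 23 of the 139 genes in xylose and 76 of the 139 in glucose. By rank of counts among all 5880 genes, the median of the set was rank 5133 in xylose and rank 2316 in glucose, and single genes stood between 110 and 5399 ranks further down in xylose.

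The log2 ratio of xylose over glucose, taken on CPM plus 1, had a median of -2.48 over the set and ran down to -9.35. The median over all genes compared was -0.28, so a typical gene was itself slightly lower in xylose on this scale, and the median of the set differed from it by -2.20. TMM scaling moved the median of all genes compared to -0.01. On that scale the highest log2 ratio of the 139 genes was -1.74, and 105 of them (1.91% of the genes compared) were at least 4-fold lower. A pseudocount of 5 CPM in place of 1 left 77 genes.

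**Figure D1:**
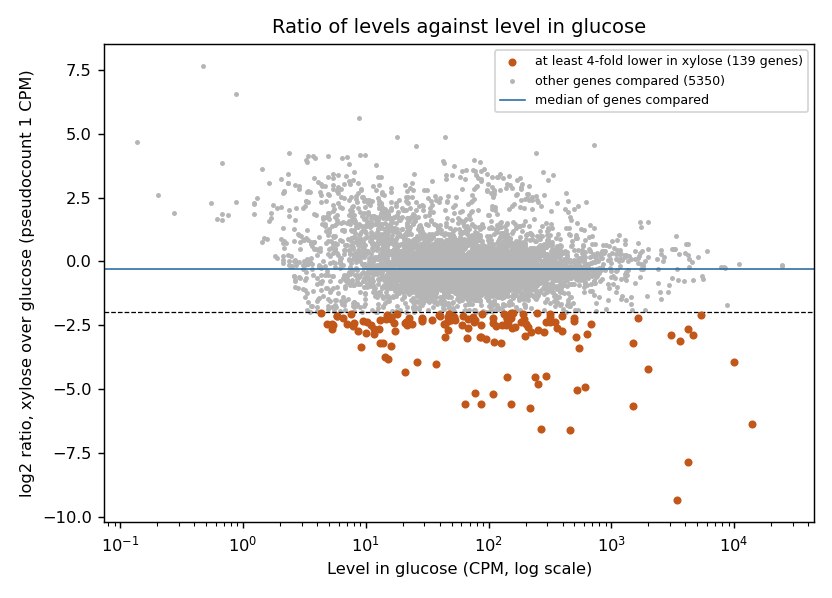
Each point is 1 of the 5489 genes compared, with its level in glucose (CPM, log scale) across and its log2 ratio of xylose over glucose up the page. Orange points are the 139 genes at or below the dashed line at -2, which marks a 4-fold difference, and the blue line is the median of -0.28. The genes farthest below the line included some of the most abundant genes of the glucose library.

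By the ratio of CPM plus 1, most of the set lay close to the 4-fold limit, and a smaller part lay far beyond it. Between 4-fold and 8-fold lower in xylose were 104 genes, 14 lay between 8-fold and 16-fold, 8 between 16-fold and 32-fold, and 13 at 32-fold or more. Cumulatively and on the same scale, the difference reached 8-fold for 35 genes (0.638% of those compared), 16-fold for 21 (0.383%) and 32-fold for 13 (0.237%). Without the pseudocount, a scale added after the data were seen, 59 of the 139 genes reached 8-fold, 34 reached 16-fold and 21 reached 32-fold, since the pseudocount shrinks the ratio of genes with few counts. Genes without a count in xylose entered at a floor of 3 counts. Genes outside the set were not counted on this scale, so no share of all genes compared can be given for it. The 13 genes at 32-fold or more on CPM plus 1 had a median level of 3.06 CPM in xylose and 268.6 CPM in glucose. The 104 genes nearest to the limit had medians of 10.4 CPM in xylose and 63.8 CPM in glucose. A gene weakly expressed in glucose cannot reach 32-fold on CPM plus 1, so this contrast is partly set by the scale. The 13 genes held 0.0250% of the xylose counts and 2.49% of the glucose counts.

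The limit cut through a continuous range of ratios. CJ5577, with 60.7 CPM in xylose and 246.6 CPM in glucose, and CJ3147, with 0.306 CPM in xylose and 4.28 CPM in glucose, lay just inside it, with ratios of glucose over xylose, pseudocount included, of 4.01 and 4.04. CJ1014, with 23.3 CPM in xylose and 95.8 CPM in glucose, and CJ1194, with 9.34 CPM in xylose and 40.2 CPM in glucose, lay just outside at 3.99 and 3.98. Without the pseudocount, the exact 95% interval of the fold between the counts lay wholly at or above 4-fold for 125 of the 139 genes. For the other 14 genes it reached below 4-fold, to 3.71-fold at the lowest. These intervals use the counts that chose the genes, so they describe the precision and add no support.

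A few very abundant genes of the glucose culture made up most of what the set lost. Summed over the 139 genes, the share of counts was 6.80 percentage points smaller in xylose. CJ5578 alone accounted for 20.2% of this loss, the 5 genes with the largest losses for 51.8%, and the 10 with the largest for 73.4%. The remaining members each accounted for 2.17% of the loss (CJ0444) or less.

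**Figure D2:**
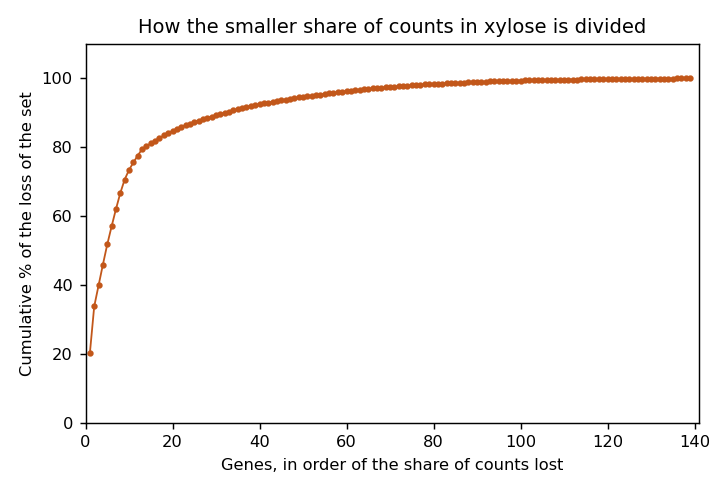
The line adds up the loss in share of counts over the 139 genes, from the gene with the largest loss to the smallest, as a percentage of the loss of the whole set. It stands at 20.2% after 1 gene, at 51.8% after 5 genes and at 73.4% after 10.

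The glucose library held 13 genes of the set among its 100 most abundant genes by counts and 12 by counts per coding length (FPKM). The xylose library held 0 of them among its 100 most abundant by either measure, and 6 among its 500 most abundant by counts. The rule places the xylose level of each gene well below its glucose level, so this contrast is partly set by it. CJ5578 (coding length 1101 bases) was at rank 3 in glucose. It had 2213 counts in xylose and 204672 in glucose, or 169 CPM in xylose and 13896 CPM in glucose, an 82.0-fold difference (exact 95% interval 78.6-fold to 85.6-fold). In xylose it ranked 1092 by counts, still above most genes measured.

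CJ0095 (1047 bases), with rank 5 in glucose, had 8496 counts in xylose and 145781 in glucose, or 650.5 CPM in xylose and 9898 CPM in glucose, which is 15.2 times less in xylose (14.9 to 15.6 times). CJ4174 (1308 bases) had the highest level of the set in xylose, 1245 CPM, against 5358 CPM in glucose, a 4.30-fold difference (4.23-fold to 4.38-fold). It left the set under TMM scaling, at a log2 ratio of -1.83. Per coding length, CJ5578 had 154 FPKM in xylose and 12621 FPKM in glucose, CJ0095 had 621 FPKM in xylose and 9453 FPKM in glucose, and CJ4174 had 952 FPKM in xylose and 4096 FPKM in glucose. CJ5578 thus had the lowest level of the 3 in xylose and the highest in glucose.

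CJ0776 (1563 bases) had 616.8 CPM in xylose and 4597 CPM in glucose, and CJ0779 (1848 bases), 3 IDs further on, had 681.6 CPM in xylose and 4249 CPM in glucose. Both were abundant in each culture and had similar folds, 7.45-fold lower for CJ0776 (7.28-fold to 7.63-fold) and 6.23-fold lower for CJ0779 (6.10-fold to 6.37-fold). The genes between them differed far less, with log2 ratios of -0.47 for CJ0777 and -0.75 for CJ0778. CJ2334 (651 bases) had 420.6 CPM in xylose and 3087 CPM in glucose, and was 7.34-fold lower. CJ1329 (1311 bases) had 417.6 CPM in xylose and 3591 CPM in glucose, and was 8.60-fold lower. CJ4908 (1020 bases) was lower by more, with 105 CPM in xylose and 1988 CPM in glucose, an 18.9-fold difference.

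Other abundant genes of the glucose culture had low levels in the xylose library, though CJ5798 kept 222 counts there. CJ2400 (1110 bases) had 4.21 CPM in xylose and 3407 CPM in glucose, and CJ5798 (1587 bases) had 17.0 CPM in xylose and 4174 CPM in glucose. Their log2 ratios of -9.35 and -7.86 were the lowest of all genes compared. Per coding length they had 3.79 FPKM in xylose and 3069 FPKM in glucose for CJ2400, and 10.7 FPKM in xylose and 2630 FPKM in glucose for CJ5798. Levels in glucose were thus close to those of CJ1329, with 319 FPKM in xylose and 2739 FPKM in glucose, and the 3 genes differed mainly in what was left in xylose.

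**Figure D3:**
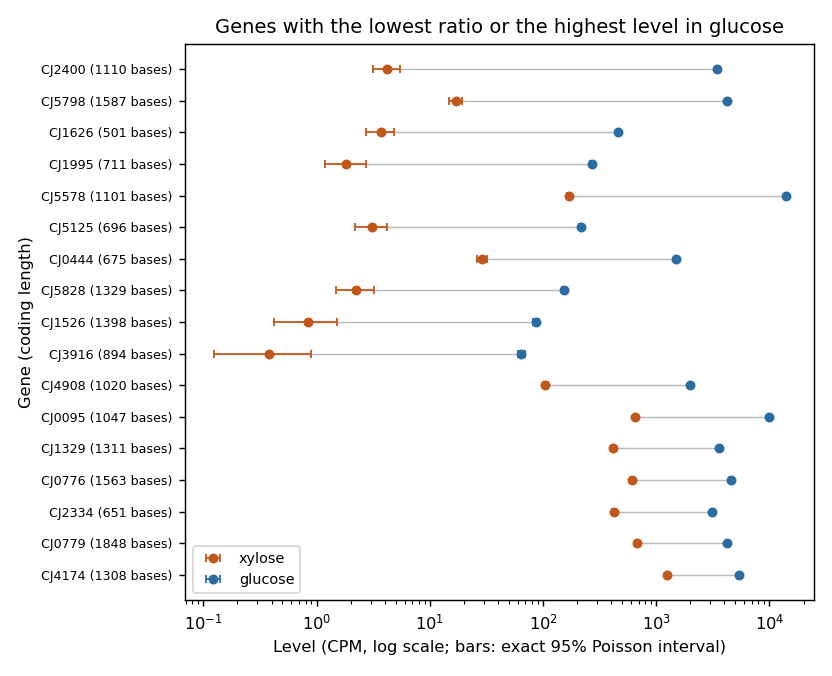
Levels in xylose (orange) and glucose (blue) of the 10 genes with the lowest ratio and the 10 with the highest level in glucose, 17 genes in all, in CPM on a log scale with exact 95% Poisson intervals that cover counting error. The lowest ratio is at the top: CJ2400 stood at 4.21 CPM in xylose and 3407 CPM in glucose, and CJ4174, at the bottom, at 1245 CPM in xylose and 5358 CPM in glucose.

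The other genes among the 10 lowest ratios were less abundant in glucose. CJ0444 (675 bases), still at rank 78 of the glucose counts, had 378 counts in xylose and 22182 in glucose, or 28.9 CPM in xylose and 1506 CPM in glucose, a 52.0-fold difference (47.0-fold to 57.8-fold). CJ1626 has a short coding length of 501 bases, and had 48 counts in xylose and 6747 in glucose, a 125-fold difference (93.9-fold to 169-fold). CJ1995 (711 bases) had 24 counts in xylose and 3956 in glucose, 146-fold lower (98.1-fold to 228-fold). Few counts of CJ1626 and CJ1995 remained in xylose, and their intervals were wider than that of CJ0444.

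CJ5125 (696 bases) had 40 counts in xylose and 3177 in glucose, and was 70.4-fold lower. For CJ5828 (1329 bases) the counts were 29 in xylose and 2249 in glucose, a 68.8-fold difference. CJ1526 (1398 bases) had 11 counts in xylose and 1279 in glucose, and CJ3916 (894 bases) had 5 in xylose and 949 in glucose. The fold of CJ3916, 168-fold lower, had an interval from 71.9-fold to 519.5-fold, so its place in the order of these genes was not settled by the counts.

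Loss of signal in xylose was rarely complete. Of the 139 genes, 2 had no count in xylose, 6 had 1 to 3 counts, 21 in all had under 10, 40 had from 10 to under 100, 63 had from 100 to under 1000, and 15 had 1000 or more. The 2 genes without a count, named after their values were seen, were CJ2038 (867 bases) with 135 counts in glucose and CJ5439 (1986 bases) with 78. A count of 0 in xylose allows up to 3 counts, or 0.230 CPM, and against that floor CJ2038 was at least 39.9-fold lower and CJ5439 at least 23.1-fold lower. In glucose the lowest count of the set was 63, and the rule itself required every gene of the set to have counts there.

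By level in glucose, genes of the set were found in every class. Among the 121 genes compared at 1000 CPM or more in glucose, 13 (10.7%) belonged to the set, and their medians were 359 CPM in xylose and 3591 CPM in glucose. They were 51 of 1887 genes (2.70%) between 100 and 1000 CPM, 60 of 3004 (2.00%) between 10 and 100 CPM, and 15 of 477 (3.14%) under 10 CPM. Of the set's own glucose counts, the 13 genes of the top class held 78.4%. The level in glucose is part of the rule, so these shares are partly set by it.

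Grouped by the mean level of both libraries, the set was most frequent at the ends of the range. It took 33 of 371 genes (8.89%) under 10 CPM, 61 of 3202 (1.91%) between 10 and 100 CPM, 34 of 1787 (1.90%) between 100 and 1000 CPM, and 11 of 129 (8.53%) at 1000 CPM or more. The 273 genes with xylose levels 4-fold or more above glucose levels, by the same limits (4.97% of those compared), were distributed otherwise, with 3.23%, 4.43%, 5.99% and 9.30% of these classes in the same order. Under 10 CPM, genes lower in xylose therefore outnumbered higher ones, 33 against 12, and between 10 and 1000 CPM they were fewer. The median log2 ratio of all genes under 10 CPM was also lower, at -0.53, and that of genes at 1000 CPM or more was 0.12. The mean level is made of the levels that the rule used, so these shares are partly set by the rule. They were not computed with TMM scaling.

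**Figure D4:**
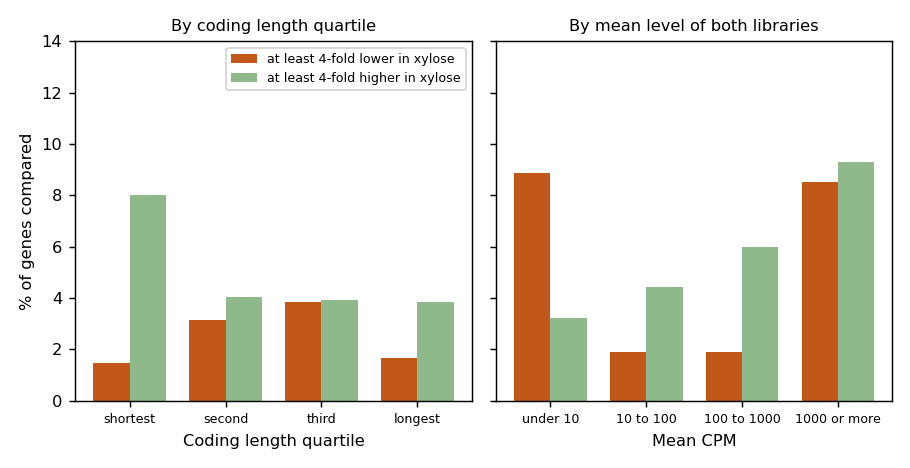
Bars give the percentage of the genes compared that were at least 4-fold lower (orange) or at least 4-fold higher (green) in xylose, by quartile of coding length on the left and by mean CPM of both libraries on the right. Lower genes made up 1.45%, 3.16%, 3.86% and 1.68% of the quartiles from shortest to longest, and 8.89%, 1.91%, 1.90% and 8.53% of the level classes from lowest to highest.

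The genes of the set were mostly of middle coding length. Their median was 1329 bases (quartiles 966 and 1656 bases, range 339 to 8469 bases), against 972 bases (576 and 1659 bases) for genes higher in xylose by 4-fold or more, and 1242 bases (807 and 1824 bases) for all genes compared. The set took 20 of 1383 genes (1.45%) with up to 807 bases, 43 of 1362 (3.16%) up to 1242 bases, 53 of 1372 (3.86%) up to 1824 bases, and 23 of 1372 (1.68%) above that. For the genes higher in xylose these shares were 8.03%, 4.04%, 3.94% and 3.86%, highest in the shortest quartile.

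Both levels of expression showed fewer of the longest genes in the set than of the middle lengths. Above the median mean level, the set took 2.12%, 2.91%, 2.95% and 1.11% of the quartiles from short to long, and at or below it 0.831%, 3.38%, 4.86% and 2.29%. The 35 genes at least 8-fold lower were spread in a like way, with 4, 13, 15 and 3 in these quartiles. Genes are not independent replicates, and no test of these shares was made.

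Some genes of the set had consecutive IDs. At the next or previous ID of 29 of the 139 genes (20.9%) stood another gene of the set, and the same was true of 222 of the 5350 other genes compared (4.15%). With TMM scaling the shares were 14 of 105 genes (13.3%) in the set and 3.31% of the others. With an 8-fold limit, 2 of 35 genes (5.71%) had another of the 35 beside them, against 1.16% of the others. These 2 genes, CJ5275 and CJ5276, form a single pair. Among the 273 genes of the opposite kind, higher in xylose by 4-fold or more, 38 (13.9%) had a neighbouring ID of that kind, against 8.86% of the other genes compared. One of these 273 stood beside 9 of the 139 genes (6.47%) and beside 9.18% of the compared genes outside the set. Whether the IDs number the genes along the chromosomes is not stated in the files, and reads shared between overlapping or similar neighbours were not tested.

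Neighbours outside the set were also somewhat lower in xylose than other genes. The 222 compared genes with a gene of the set at the next or previous ID, but not in it themselves, had a median log2 ratio of -0.54 (quartiles -1.01 and 0.04). The 5128 remaining genes outside the set had a median of -0.24 (quartiles -0.69 and 0.34). At least 2-fold lower were 56 of the 222 neighbours (25.2%) and 608 of the 5128 others (11.9%), while 14.6% of all genes compared, the set included, were at least 2-fold lower.

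The 29 genes formed 13 pairs and 1 run of 3. Within 7 of these 14 runs the coding lengths differed by at most 20%. The same share was not computed for neighbouring IDs outside the set, so it cannot be called high or low. Levels within a run were unequal: per coding length (FPKM), the highest gene of a run in glucose exceeded the lowest by a median of 3.15-fold, from 1.15-fold to 118-fold. Among the 26 flanking genes that could be compared, the log2 ratio ran from -1.90 to 2.63 with a median of -0.59, and 8 were at least 2-fold lower and 6 at least 2-fold higher in xylose. Over all genes compared, 14.6% were at least 2-fold lower, and the share at least 2-fold higher was not computed.

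CJ5578, the most abundant gene of the set, was paired with CJ5577 (807 bases), which had 60.7 CPM in xylose and 246.6 CPM in glucose and lay just inside the limit (log2 ratio -1.74, outside it, with TMM scaling). The flanking genes CJ5576 and CJ5579 had log2 ratios of -1.02 and -1.36, so this stretch of 4 IDs was lower in xylose throughout. CJ1995 and CJ1996 had the lowest mean log2 ratio of the pairs, -4.40. CJ1996 (906 bases) had 22.2 CPM in xylose and 108 CPM in glucose and was 4.85-fold lower, against 146-fold for its partner. With TMM scaling CJ1996 was outside the limit, at -1.96.

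CJ0444 and CJ0445 are close in coding length, 675 and 741 bases. CJ0445 had 65.8 CPM in xylose and 514.9 CPM in glucose, a 7.82-fold difference (7.29-fold to 8.40-fold). Per coding length, CJ0444 had 42.9 FPKM in xylose and 2231 FPKM in glucose and CJ0445 had 88.9 FPKM in xylose and 694.9 FPKM in glucose, so CJ0445 had the higher level of the pair in xylose and the lower in glucose. CJ1526 and CJ1527 are similar in length as well, 1398 and 1449 bases. CJ1527 had 25.3 CPM in xylose and 199 CPM in glucose, a 7.87-fold difference, against 103-fold for CJ1526. On the outer side of CJ1526, CJ1525 had a log2 ratio of 1.40 and was thus higher in xylose.

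CJ5275 (1044 bases) had 106 counts in xylose and 3730 in glucose, and was 31.2-fold lower. Its partner CJ5276 (1686 bases) had 170 counts in xylose and 1872 in glucose, a 9.76-fold difference (8.34-fold to 11.5-fold). The run of 3 consisted of CJ1845 (393 bases), CJ1846 (1362 bases) and CJ1847 (1380 bases). CJ1845 had 516 counts in xylose and 2857 in glucose, CJ1846 had 9 in xylose and 234 in glucose, and CJ1847 had 7 in xylose and 85 in glucose. With TMM scaling CJ1845 and CJ1847 missed the limit, and with a pseudocount of 5 CPM CJ1846 (log2 ratio -1.88) and CJ1847 (-0.96) did. The next ID, CJ1848, just missed the limit at a log2 ratio of -1.90, and CJ1844 on the other side stood at 0.34.

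**Figure D5:**
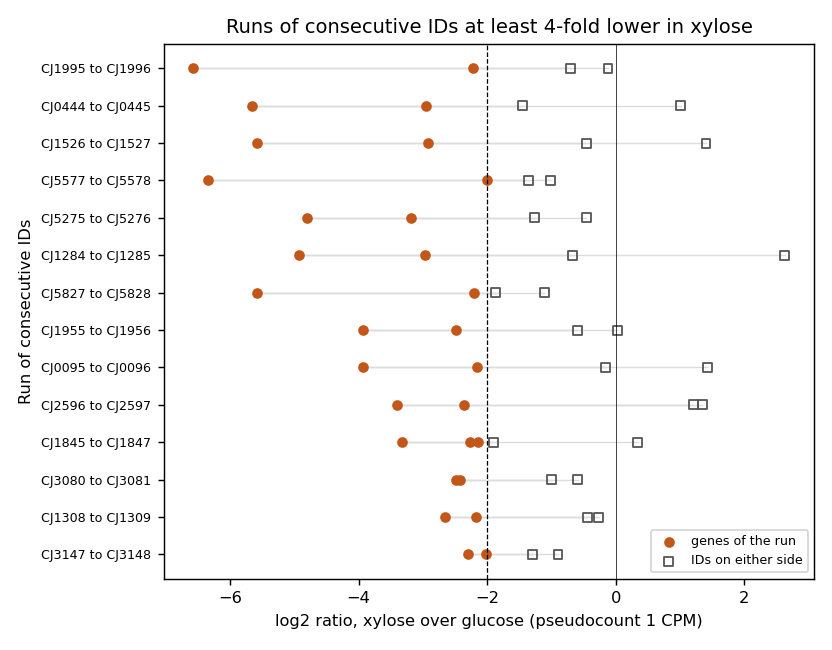
Each row is 1 of the 14 runs of consecutive IDs in the set, ordered by the mean log2 ratio of its genes. Filled orange circles are the genes of the run, open squares the genes at the IDs on either side (2 of the 28 squares had too few counts or too short a coding length to be compared), and the dashed line marks 4-fold lower in xylose. In CJ5577 to CJ5578 both flanking genes were lower in xylose (-1.36 and -1.02), whereas in CJ2596 to CJ2597 both were higher (1.21 and 1.35).

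Along the ID range the set was spread over all blocks of 1000 IDs. The lowest share was 13 of 919 genes compared (1.41%) for CJ4001 to CJ5000, and the highest 29 of 794 (3.65%) for CJ5001 to CJ5880. The last block also held 11 of the 35 genes at least 8-fold lower, among its 794 genes compared. The blocks before it held 4 of 960, 8 of 929, 5 of 942, 3 of 945 and 4 of 919, in ID order. Over all genes compared the share was 0.638%, and differences between blocks were not tested.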

How the data were processed

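Per the labels' protocols, the libraries (1 for xylose, 1 for glucose) were paired-end and kept strand, with 150-nt reads. The raw read counts deposited by the authors are whole numbers per gene. Reads were aligned with HISAT2 (version 2.2.1), per the submitters' processing notes. Not given in the sources used here are the counting tool, its strand setting, the genome build and the annotation, so overlapping or near-identical genes may share reads. The deposited FPKM values equal the count per kilobase of coding length and per 1000000 counts, with a largest relative difference of 1.13e-08.

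CPM used the total counts. The log2 ratio compares xylose CPM + 1 with glucose CPM + 1, and it understates the differences of weakly expressed genes. Folds of single genes are glucose CPM over xylose CPM without a pseudocount, with exact conditional binomial 95% intervals. TMM and upper-quartile factors came from edgeR 4.0.16 and size factors from DESeq2 1.42.0, in R 4.3.3, and the rest from Python 3.11.15 with SciPy 1.17.1.

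The 139 genes, the questions asked of them and the alternatives were chosen with earlier results of these data known. Genes were named by a rule: the 10 lowest ratios, the 10 highest glucose levels, the 5 highest xylose levels, every run of 3 consecutive IDs, the 5 pairs with the lowest mean ratio, and 2 genes on each side of the limit. Genes that flank these or lie between them were added for context. No list of pathway genes was used, since no ID could be matched to a name.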

Additional observations from a re-analysis of the deposited data

How the results depend on the processing

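Of 14 alternatives for choosing the genes, 3 moved their number beyond 1.5 times: a pseudocount of 5 CPM gave 77 genes, a 2-fold threshold 803 and an 8-fold threshold 35. The others gave 95 to 195 genes. TMM, median-of-ratios and upper-quartile scaling kept 105, 103 and 118 of the 139 genes and added 0. The share of xylose and of glucose counts held by the genes so chosen was 0.476% and 6.45% with TMM. It was 0.472% and 6.43% with median of ratios, and 0.544% and 6.77% with upper quartile. It was 0.737% and 7.60% when the 20 most abundant genes of each library, 31 in all, were left out of the totals. It was 0.746% and 7.64% with a pseudocount of 0.1 CPM, 0.674% and 7.29% with 5 CPM, 0.711% and 7.46% with at least 500 counts, and 0.707% and 7.40% above 600 bases. With the interval at or above 4-fold it was 0.682% and 7.36%, per coding length 0.710% and 7.48%, at 2-fold 4.48% and 17.4%, and at 8-fold 0.173% and 4.45%. Without a length limit the share of glucose counts was 7.59%. The median log2 ratio of the genes chosen was -1.36 at 2-fold and -4.49 at 8-fold, which follows from the thresholds. The share with a neighbouring ID in the set was 13.3% with TMM and 5.71%, from a single pair, at 8-fold, and the cause was not tested. It was 18.9% to 23.4% with the other alternatives run for it. The median coding length stayed between 1272 and 1341 bases over its 4 alternatives. Of the 27 named genes of the set, 20 remained at least 4-fold lower under all 5 changes of scaling and pseudocount. The other 7 (CJ1845, CJ1846, CJ1847, CJ1996, CJ3147, CJ4174 and CJ5577) missed 4-fold under at least 1. Leaving out a library was not possible. No paired analysis was possible because there was only 1 library of either kind. Where xylose counts were few, depth left the fold loosely bounded.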

Other observations

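The limits on length and counts kept 3 genes out of the set that passed the same 4-fold ratio, all with coding lengths of at most 300 bases, and the minimum of 50 counts kept out none. The pseudocount of 1 CPM already holds genes with very few counts below 4-fold, so the result for the minimum was largely set in advance. The 3 genes were named after their values were seen. CJ1554 (246 bases) had 370 counts in xylose and 10616 in glucose, or 28.3 CPM in xylose and 721 CPM in glucose, with a log2 ratio of -4.62. CJ2616 (261 bases) had 23 counts in xylose and 187 in glucose, and CJ1947 (270 bases) had 80 in xylose and 435 in glucose, with log2 ratios of -2.31 and -2.10. CJ1554 would rank among the 21 genes at least 16-fold lower on CPM plus 1 if short genes were included.

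In addition, 6 genes of the set had 1 to 3 counts in xylose, and their folds are poorly bounded. They were named after their values were seen. CJ0003 (1599 bases) had 1 count in xylose and 308 in glucose, and was 273-fold lower with a counting interval from 48.7-fold to 10822-fold. CJ5385, CJ3058, CJ3080 and CJ3560 had 2 counts each in xylose and 225, 210, 80 and 78 in glucose. CJ1245 had 1 in xylose and 71 in glucose. The pseudocount of 1 CPM holds the log2 ratios of these 6 genes between -4.35 and -2.43.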
